A study of Mus musculus with 8 samples.

Results

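Immediate early and stress genes are 34 listed genes, 27 immediate early genes and 7 heat shock genes, followed here through 8 single-cell libraries of the mouse yolk sac. They were taken from a list of names and not by a rule on measured values, but the list was chosen with earlier results of these data known. Of the 34, 33 were among the 23091 genes listed in the tables (Hspa1b was in no table). All cells came from the extraembryonic yolk sac of untreated wild-type C57BL/6N embryos at embryonic day 9.5, and these features were shared by both groups. The 4 libraries called A1/A2 here are labelled as A1 and A2 cells, which are yolk sac macrophage precursors. The 4 called EMP are labelled as EMP cells, that is erythromyeloid progenitors, and the labels say that they were run alongside and left out of the study's paper. Antibodies to CD45 and CD11b were used for staining, and single cells positive for CD45 were sorted into the wells of plates of 384. A1 and A2 cells therefore share their libraries and carry no label per well. The mCEL-Seq2 protocol was used, which tags the 3' end of a transcript once, with a barcode for the well and an identifier for the molecule. Nothing in the labels says that libraries 1 to 4 of a group came from separate embryos or litters, so all p-values measure the spread between these libraries, which may be technical.

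Immediate early genes are transcribed within minutes of a stimulus, without new protein synthesis, mainly through transcription factors that are already present and are activated by MAP kinase, cyclic AMP or NF-kB signalling. Their products are transcription factors such as the Fos and Jun subunits of AP-1 and the zinc finger proteins Egr1 and Klf2, and feedback regulators that end the response, such as the phosphatase Dusp1 and the mRNA decay factor Zfp36. Heat shock chaperones are raised by the factor Hsf1 when proteins unfold, and some of them, such as Hspa8 and Hsp90aa1, are abundant in unstressed cells. Both sets are known to be sensitive to the time, temperature and enzymes used to bring a tissue into single cells.

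Wells with a total of at least 1000 transcripts were kept, which left 568 A1/A2 wells (127 to 166 per library) and 655 EMP wells (147 to 177 per library) of 1536. Summed totals were 2558197 to 3559612 transcripts per A1/A2 library and 3888853 to 5418136 per EMP library, with median wells of 3763 to 9412 and 16856 to 21921. All libraries use the same set of well barcodes, and 0 kept wells had values identical to those of a well in another library. Wells were put in classes by marker transcripts. High-Apoa1 wells had at least 20 transcripts per 10000 of Apoa1, a gene of the visceral endoderm, and S100a8 wells at least 5 per 10000 of this neutrophil and monocyte gene. The Cx3cr1, Kit or Cdh5 wells, among the rest, had a transcript of 1 of these 3 genes alone, which mark macrophages, progenitors and endothelium. Defining markers were checked in each class. Of these, 10 macrophage genes summed to 16.2 to 19.7 per 10000 in the Cx3cr1 wells, 7 progenitor genes to 7.68 to 9.09 in the EMP Kit wells, and 8 endothelial genes to 22.6 to 43.8 in the Cdh5 wells. These classes also held endoderm transcripts. The 8 endoderm genes listed summed to 18.9 to 37.7 per 10000 in the Cx3cr1 wells and 26.05 to 44.1 in the EMP Kit wells. They summed to 17.1 to 31.6 in the Cdh5 wells. In the high-Apoa1 wells they summed to 177.7 to 208.5 (A1/A2) and 183.1 to 235.3 (EMP). Beside the CD45 gate, 8 endoderm genes summed to 70.4 to 123 per 10000 in whole A1/A2 libraries and 122 to 182 in whole EMP libraries. High-Apoa1 wells held 39.5% of the A1/A2 and 63.5% of the EMP transcripts. Every comparison of whole libraries below is therefore also one of cell mixtures, in which fewer cells of a type and less RNA per cell cannot be told apart.

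Promoter windows of 250 bases before and 50 after the start site were held by RefSeq (GRCm38.p6) for 28 of the 34 members, 23 immediate early and 5 heat shock genes. Below are the 250 bases before the start site of 5 of these members, 5' to 3' on the gene's strand. Dusp1, Btg2 and Dusp5 are feedback regulators that had lower levels in deep than in shallow A1/A2 wells, calls that were lost without the S100a8 wells. Their capitals mark a cyclic AMP response element (Dusp1 and Btg2) and a pair of adjoining CArG boxes, the element bound by serum response factor (Dusp5). Jun and Klf2 led the difference between the groups of libraries and have no capitals, because none of the elements searched was found in their windows. Nor was any found in those of Nfkbia, Btg1, Ier3, Nr4a1 and Hspb1, which kept their calls for deep against shallow A1/A2 wells without the S100a8 wells. The windows of Junb, Klf6, Ier5 and Dusp2 held none either, and their calls were lost without the S100a8 wells.
Dusp1 (chr17:26508473-26508722, minus strand): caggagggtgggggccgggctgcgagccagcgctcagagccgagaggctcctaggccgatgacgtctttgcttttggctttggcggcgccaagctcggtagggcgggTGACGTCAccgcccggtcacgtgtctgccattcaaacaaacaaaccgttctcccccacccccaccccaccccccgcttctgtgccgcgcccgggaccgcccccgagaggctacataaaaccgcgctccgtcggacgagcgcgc
Btg2 (chr1:134079156-134079405, minus strand): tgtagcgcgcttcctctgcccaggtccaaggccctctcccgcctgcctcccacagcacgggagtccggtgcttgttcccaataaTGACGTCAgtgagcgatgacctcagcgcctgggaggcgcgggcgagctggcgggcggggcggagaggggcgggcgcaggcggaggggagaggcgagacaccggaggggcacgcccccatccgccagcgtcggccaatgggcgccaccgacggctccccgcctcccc
Dusp5 (chr19:53528895-53529144, plus strand): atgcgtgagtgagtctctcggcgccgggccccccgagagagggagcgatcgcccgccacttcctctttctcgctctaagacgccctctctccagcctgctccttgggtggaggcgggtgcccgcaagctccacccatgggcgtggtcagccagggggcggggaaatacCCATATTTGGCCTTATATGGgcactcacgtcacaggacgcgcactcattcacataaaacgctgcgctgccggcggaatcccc
Jun (chr4:95052223-95052472, minus strand): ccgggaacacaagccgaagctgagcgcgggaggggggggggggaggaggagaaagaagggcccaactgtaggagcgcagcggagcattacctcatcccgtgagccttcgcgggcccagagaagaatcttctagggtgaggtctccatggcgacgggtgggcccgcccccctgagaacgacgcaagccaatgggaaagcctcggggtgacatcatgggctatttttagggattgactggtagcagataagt
Klf2 (chr8:72318812-72319061, plus strand): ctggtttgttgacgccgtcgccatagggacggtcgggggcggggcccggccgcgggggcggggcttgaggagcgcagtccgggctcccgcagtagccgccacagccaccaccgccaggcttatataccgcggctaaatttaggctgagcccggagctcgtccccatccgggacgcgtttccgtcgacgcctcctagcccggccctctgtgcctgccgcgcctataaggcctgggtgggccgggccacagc

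The elements were searched on both strands of all 32851 promoter windows. The cyclic AMP response element (TGACGTCA) was in the windows of 3 members, Btg2, Dusp1 and Ppp1r15a, and in 1.79% of all windows. The CArG box was in those of Dusp5, Egr2 and Zfp36, and in 1.63% of all windows. A heat shock element of 3 alternating GAA and TTC units, each pair spaced by NN, was in that of Hsph1 and in 0.603% of all windows, and the AP-1 element (TGANTCA) was in the window of 0 members and 7.81% of all windows. In Dusp1 the element starts 143 bases before the start site, and in Dusp5 the boxes start 82 and 72 bases before it. A match is a run of letters and was not measured as a site.

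The summed level of the immediate early members was higher in the A1/A2 than in the EMP libraries, and so was that of the heat shock members. The immediate early genes summed to 6.08 ± 0.742 transcripts per 10000 in the A1/A2 libraries (SD, n = 4, range 5.53 to 7.13) and 4.73 ± 0.231 in the EMP libraries (range 4.504 to 5.04), and the ranges did not overlap. The heat shock genes summed to 40.1 ± 2.63 (37.4 to 43.4) and 33.1 ± 1.62 (31.4 to 35.1), again without overlap. Hsp90aa1, a cytosolic chaperone, gave 65.9 to 75.8% of the heat shock sum in the A1/A2 libraries, against 74.9 to 75.5% in the EMP libraries. Klf6, a zinc finger factor, gave the largest share of the immediate early sum with 17.6 to 28.7% and 26.5 to 34.8%. Without Hsp90aa1 and Hspa8 the heat shock sum had the lower mean on the A1/A2 side, with overlap, at 3.85 ± 0.660 (3.31 to 4.79) and 4.84 ± 0.580 (4.34 to 5.67) in the EMP libraries. With wells weighted equally the heat shock means were 32.6 and 30.41 per 10000 and the immediate early means 7.82 and 4.7. Mitochondrial transcripts, a common measure of damaged cells, were 19.0 to 21.9% in the A1/A2 and 24.2 to 26.8% in the EMP libraries.

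**Figure D1:**
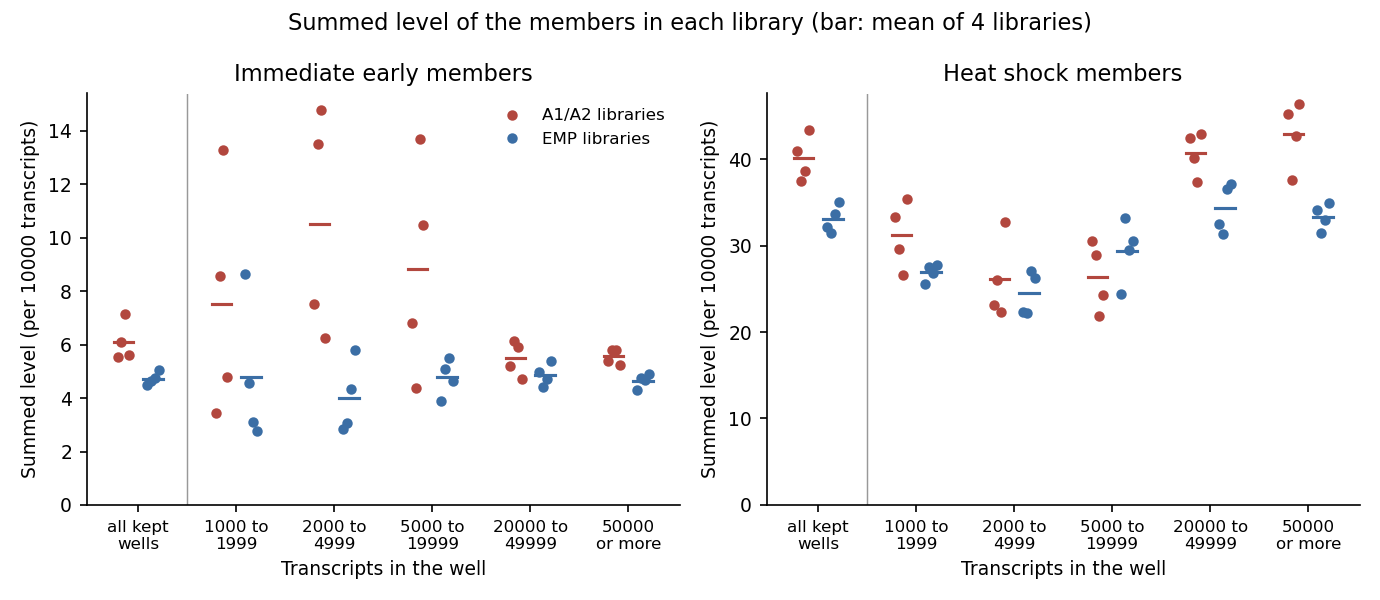
Summed level of the 27 immediate early (left) and 7 heat shock (right) members in transcripts per 10000, over all kept wells and by bins of the total transcripts of the well. Each point is 1 library (red A1/A2, blue EMP) and each bar the mean of 4 libraries; over all kept wells the red points lie above the blue ones in both panels, and in wells of under 20000 transcripts the red points of the left panel spread widely.

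The spread over libraries lay in the wells of few transcripts. Sums there rest on few counts. In wells of 1000 to under 2000 transcripts the immediate early members had 13, 35, 60 and 33 transcripts in A1/A2 libraries 1 to 4. In EMP libraries 1 to 4 they had 26, 6, 6 and 7. In wells of 50000 or more transcripts the immediate early sum was 5.26 to 5.81 per 10000 in the A1/A2 libraries, against 4.30 to 4.88 in the EMP libraries. In wells of 2000 to under 5000 transcripts it was 6.25 to 14.8 in the A1/A2 libraries, against 2.85 to 5.81 in the EMP libraries. The groups overlapped in wells of 1000 to under 2000 transcripts (3.43 to 13.3 against 2.78 to 8.64) and in those of 5000 to under 20000 (4.38 to 13.7 against 3.87 to 5.50). They also overlapped in wells of 20000 to under 50000 transcripts (4.70 to 6.15 against 4.40 to 5.37). The heat shock sum of the A1/A2 libraries was 26.6 to 35.4, 22.3 to 32.8 and 21.8 to 30.5 in the 3 bins of under 20000 transcripts in order of depth. It was 37.6 to 46.4 in their wells of 50000 or more transcripts. In the EMP libraries it was 25.6 to 27.8 in the shallowest bin and 31.4 to 35.0 in wells of 50000 or more. After each well had been thinned to 1000 transcripts, 3.03, 6.29, 13.4 and 6.02% of the wells of A1/A2 libraries 1 to 4 held transcripts of 3 or more immediate early members, against 1.13 to 1.36% in the EMP libraries. Without thinning, where depth enters the count, the same shares were 44.6 to 56.1% and 62.9 to 74.6%.

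Among single members, the difference between A1/A2 and EMP libraries was carried by Jun, Klf2, Egr1, the 3 Ier genes, 3 feedback regulators and Hspa8. Counts were summed per library and tested with edgeR's quasi-likelihood test with Benjamini-Hochberg adjustment over all genes at 5%, and levels are given as CPM of the normalized library sum. Of 29 members tested, 10 had higher and 1 had lower levels in A1/A2 than in EMP libraries, while 17.3% of all 11144 genes tested were higher and 15.4% were lower. The median log2 fold change was 0.32 over the tested members and -0.02 over all genes. For the 27 immediate early genes the count was 9 higher and 0 lower of 23 tested, with a median of 0.45. For the 7 heat shock genes it was 1 higher and 1 lower of 6 tested, with a median of -0.08. The 10 macrophage markers summed to 8.22 to 11.4 per 10000 in the A1/A2 libraries, against 0.584 to 1.14 in the EMP libraries, and their part in these differences was not tested.

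Of the AP-1 subunits, Jun, the main partner of Fos proteins in AP-1, had 43.6, 44.3, 36.7 and 54.5 CPM in A1/A2 libraries 1 to 4, against 17.0, 17.9, 18.4 and 17.3 CPM in the EMP libraries. All A1/A2 libraries lay above all EMP libraries, and the log2 fold change was 1.35 ± 0.14 (SE, adjusted p = 3.1e-05). Its relatives did not follow: Jund had 52.4 ± 7.33 and 52.0 ± 4.25 CPM (SD, n = 4 each), and Junb had 22.4 ± 3.41 and 17.7 ± 2.79 CPM, with groups that overlapped. Fos itself was rare, with 5.71 to 6.65 CPM in the A1/A2 libraries, against 2.25 to 4.63 CPM in the EMP libraries, and its log2 fold change of 0.69 ± 0.28 did not pass the test (adjusted p = 0.072). Atf3, a stress-induced partner of Jun, had 9.14 to 14.3 and 7.99 to 11.6 CPM, with groups that overlapped, and Fosl2, a Fos relative, had 2.86 to 11.8 and 2.31 to 3.005 CPM, also with overlap. Fosb was found with 1 transcript in all, too few for a test.

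Of the zinc finger factors, Klf2, a regulator of quiescence in endothelium and myeloid cells, had 55.0, 28.0, 49.2 and 30.6 CPM in A1/A2 libraries 1 to 4 but 10.5, 8.75, 7.70 and 10.03 CPM in the EMP ones. The lowest A1/A2 library lay well above the highest EMP library, and the log2 fold change was 2.12 ± 0.23 (adjusted p = 6.5e-05). Egr1, a classical early response factor, rested on few transcripts, 22, 12, 27 and 14 in A1/A2 libraries 1 to 4 but 1, 4, 2 and 6 in the EMP ones, which gave a log2 fold change of 3.14 ± 0.54 (adjusted p = 0.0013). It is named here after its values were seen, as are Gadd45b, Nfkbiz and Ier3, because its level stayed under 20 CPM. Klf6 had 131 ± 29.9 and 139 ± 21.1 CPM and a log2 fold change of -0.08 ± 0.15 that did not pass. Egr2, Egr3 and Nr4a1 were too rare to be tested, with 10, 3 and 57 transcripts in the A1/A2 libraries, against 4, 0 and 23 in the EMP libraries.

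The 3 Ier genes, small early response proteins of growth factor signalling, were all higher in the A1/A2 libraries. Ier5, which is also known as a helper of Hsf1, had 21.6, 13.6, 26.1 and 15.99 CPM against 9.46, 5.44, 11.6 and 7.77 CPM, without overlap, and a log2 fold change of 1.15 ± 0.26 (adjusted p = 0.0061). Ier2 had 38.5, 28.0, 29.7 and 27.4 CPM against 21.9, 19.2, 26.3 and 22.3 CPM and a log2 fold change of 0.45 ± 0.15 (adjusted p = 0.036). Ier3, an inhibitor of cell death, had 7.71 to 17.2 CPM against 5.05 to 7.77 CPM and a log2 fold change of 0.92 ± 0.26 (adjusted p = 0.017), and its groups overlapped.

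Of the 11 feedback regulators, 3 were higher and 0 lower, beside 17.3% and 15.4% of all genes. Gadd45b, a stress sensor upstream of p38 and JNK kinases, had 5.898, 4.99, 20.6 and 8.85 CPM in the A1/A2 libraries, against 1.31 to 2.26 CPM in the EMP libraries (log2 fold change 2.34 ± 0.46, adjusted p = 0.0030). Nfkbiz, an inducible cofactor of NF-kB, had 4.16 to 11.4 against 1.75 to 3.005 CPM (1.34 ± 0.38, adjusted p = 0.017). Btg1, an inhibitor of cell division, had 32.1 to 61.7 against 20.2 to 36.6 CPM (0.66 ± 0.22, adjusted p = 0.039), and the groups overlapped. Dusp1 had 2.75, 5.54, 13.2 and 12.3 CPM against 3.11 to 5.05 CPM, and A1/A2 library 1 lay below every EMP library. Nfkbia, the inhibitor that NF-kB induces to end its own signal, had 41.7 ± 10.3 and 43.3 ± 3.46 CPM (SD, n = 4 each). The other 6, Dusp2, Dusp5, Zfp36, Btg2, Socs3 and Ppp1r15a, had groups that overlapped and means from 8.84 to 36.8 CPM in the A1/A2 and 7.36 to 29.3 CPM in the EMP libraries. Among them Dusp5, a phosphatase of nuclear ERK kinases, had 6.57 to 16.9 against 16.1 to 22.3 CPM. Without S100a8 wells, here all wells at that cut with or without high Apoa1, its log2 fold change was -0.80 ± 0.24 and passed (adjusted p = 0.026). Without those wells 8 members were higher and 2 lower, and Ier3 (0.70 ± 0.27, adjusted p = 0.058) and Btg1 (0.55 ± 0.21, adjusted p = 0.068) missed 5%.

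Of the heat shock chaperones, Hspa8, the constitutive Hsp70 protein, had 839, 422, 854 and 1080.0 CPM in A1/A2 libraries 1 to 4 but 368, 223, 368 and 403 CPM in the EMP ones. Library 2 was the lowest of both groups, and its A1/A2 value was close to the highest EMP value. The log2 fold change was 1.23 ± 0.28 (adjusted p = 0.012). Dnajb1, the Hsp40 partner of Hsp70 proteins, was lower in the A1/A2 libraries, with 72.3 to 86.5 against 91.0 to 121 CPM (-0.37 ± 0.11, adjusted p = 0.024). The stress-inducible Hspa1a, whose near-identical copy Hspa1b was in no table and may share its reads, had 17.2 ± 3.37 and 17.5 ± 3.60 CPM. Hspb1, a small heat shock protein, had 40.1, 122, 55.1 and 60.3 CPM against 100.3, 168, 127 and 131 CPM, and its log2 fold change of -0.91 ± 0.32 did not pass (adjusted p = 0.057), though with equal library numbers as a block it did (-0.99, adjusted p = 5.9e-05). Hsp90aa1 had 2814 ± 89.0 and 2526 ± 35.1 CPM, a log2 fold change of 0.16 ± 0.07 that did not pass (adjusted p = 0.12). Hsph1, a nucleotide exchange factor of Hsp70 proteins, had 219 ± 23.2 and 242 ± 32.1 CPM.

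**Figure D2:**
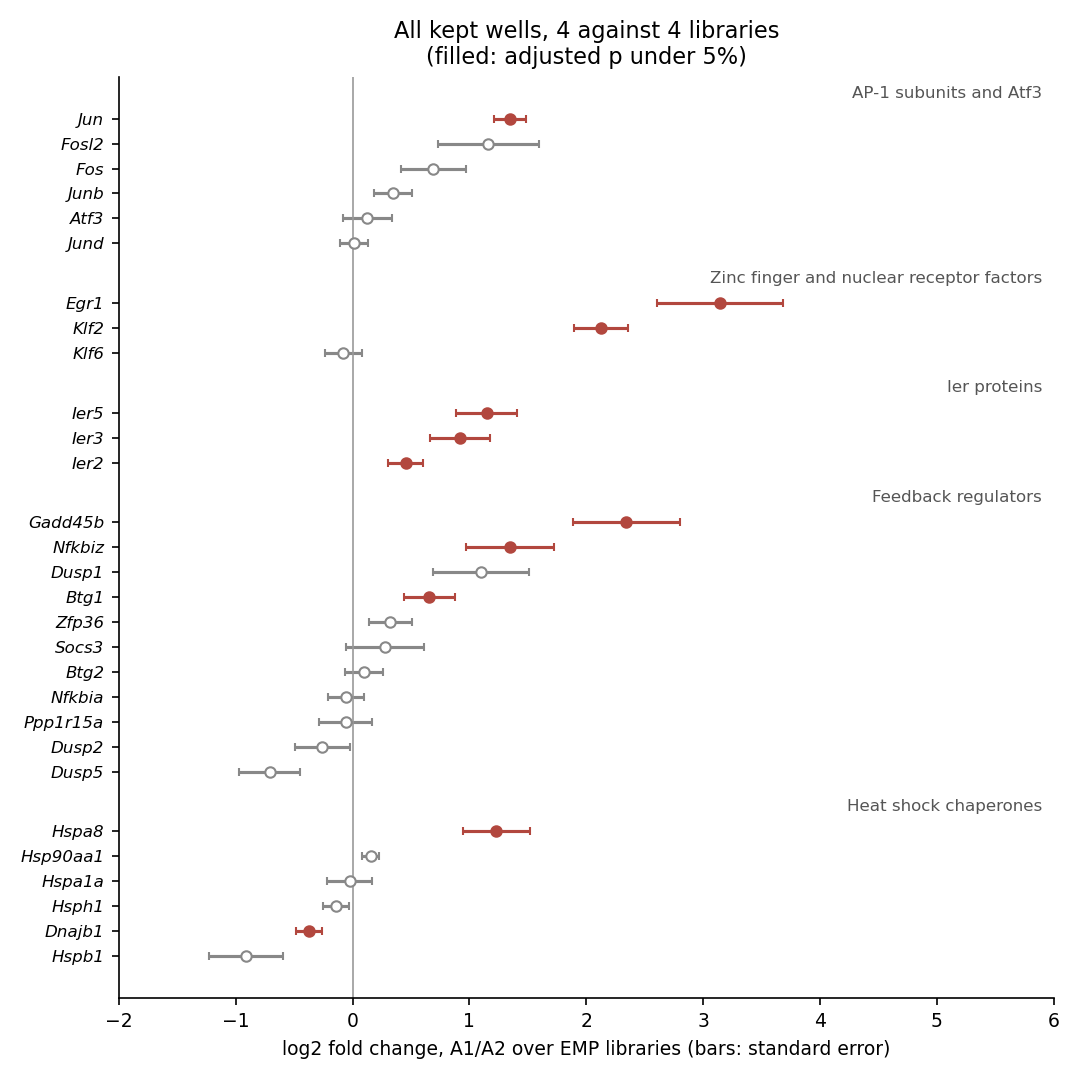
Log2 fold change of each of the 29 tested members between A1/A2 and EMP libraries (x axis, with its standard error), grouped by role. Filled red points passed an adjusted p of 5%; Egr1, Gadd45b and Klf2 lie farthest to the right, and Dnajb1 is the only filled point left of 0.

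Leaving out any 1 of the 8 libraries kept Jun, Klf2, Egr1, Gadd45b, Ier5 and Hspa8 past 5%. Ier2 missed it without A1/A2 library 1, 3 or 4 or EMP library 1, 2 or 4 (adjusted p up to 0.10). Btg1 missed it without A1/A2 library 1, 3 or 4 or EMP library 1, 2 or 3 (up to 0.11), and Dnajb1 without A1/A2 library 1, 3 or 4 or EMP library 2 (up to 0.068). Ier3 missed it without A1/A2 library 2 (0.052) and Nfkbiz without A1/A2 library 3 (0.056). Without wells of totals above 3 times the median of their library the log2 fold change of Hspa8 was 0.60 (adjusted p = 0.097) and that of Ier2 was -0.041. Without high-Apoa1 wells Jun (1.05), Klf2 (2.13), Ier5 (0.68) and Hspa8 (1.23) still passed, and Ier2, Ier3, Btg1 and Dnajb1 did not (adjusted p from 0.066 to 0.30).

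Within a class of wells found in both groups, the high-Apoa1 wells (167 A1/A2 and 284 EMP wells), fewer members differed. The same held for all genes, of which 9.15% passed there against 32.8% over all kept wells. Of 23 members tested, 2 had higher and 1 had lower levels on the A1/A2 side, against 6.17% and 2.98% of all 9615 genes. Jun had 30.1, 31.7, 20.8 and 25.9 CPM in A1/A2 and 9.31, 12.6, 14.0 and 11.98 CPM in EMP high-Apoa1 wells, without overlap, and a log2 fold change of 1.19 ± 0.21 (adjusted p = 0.00066). Ier5 had 10.2 ± 3.39 against 5.00 ± 1.32 CPM (1.08 ± 0.34, adjusted p = 0.047) and Dnajb1 80.8 ± 7.13 against 106 ± 12.4 CPM (-0.39 ± 0.12, adjusted p = 0.045). Klf2 had 9.17 ± 5.85 and 6.58 ± 1.49 CPM there (0.58 ± 0.35, adjusted p = 0.31). Hspa8 had 766, 377, 701 and 978 CPM against 363, 214, 315 and 400.4 CPM and did not pass (1.13 ± 0.34, adjusted p = 0.098). The macrophage markers summed to 2.85 to 5.88 per 10000 in the A1/A2 and 0.289 to 0.512 in the EMP high-Apoa1 wells, and the median well held 5356 to 15654 against 29055 to 46372 transcripts. The part of either in these differences was not tested. Jun kept its call without any 1 of the 8 libraries. Ier5 missed 5% in 7 of these fits (all but the one without A1/A2 library 4, adjusted p up to 0.21). Dnajb1 missed it in 7 (all but the one without EMP library 3, up to 0.15).

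Within the A1/A2 libraries the macrophage class and the endoderm class split the members. Cx3cr1 wells (115) and high-Apoa1 wells (167) of the same libraries were compared with the library as a block. The median well held 16007 to 33989 transcripts in the Cx3cr1 and 5356 to 15654 in the high-Apoa1 class. Mitochondrial transcripts were 14.3 to 18.1% and 20.4 to 23.1%. The part of either in the differences below was not tested. Of 18 members tested, 7 were higher and 4 lower in the Cx3cr1 wells, beside 27.3% and 29.4% of all 8088 genes, so the counts of members stand near the background. Klf2 had 83.4, 30.3, 99.3 and 38.3 CPM in Cx3cr1 and 4.40, 10.3, 6.26 and 18.8 CPM in high-Apoa1 wells, without overlap (2.31 ± 0.55, adjusted p = 0.017). Jun had 63.8 ± 15.01 against 29.3 ± 5.18 CPM (SD, n = 4 each), with all Cx3cr1 sums above all high-Apoa1 sums (1.14 ± 0.17, adjusted p = 4.3e-06). Ier2 (0.88 ± 0.22), Ier5 (1.10 ± 0.31), Hspa1a (0.89 ± 0.27) and Dusp2, a phosphatase of blood cells (0.83 ± 0.28), were also higher, and Hspa8 was higher by a log2 of 0.28 ± 0.07. Hspb1 was the most different member in the other direction, with 25.1 ± 16.2 CPM in Cx3cr1 and 135 ± 47.6 CPM in high-Apoa1 wells (-2.46 ± 0.17, adjusted p = 3.7e-12). Klf6 (101 ± 21.5 against 186 ± 41.1 CPM), Nfkbia (31.0 ± 6.04 against 49.2 ± 4.43 CPM) and Btg2, a relative of Btg1 (8.50 ± 5.84 against 21.9 ± 4.31 CPM), were lower as well. Without A1/A2 library 2 Klf2 had an adjusted p of 0.053 and Dusp2 of 0.13. Without A1/A2 library 4 Ier5 had one of 0.053, and without the library block Hspa8 had one of 0.58. With DESeq2 8 of the 11 calls remained, and Hspa1a (adjusted p = 0.062), Nfkbia (0.062) and Dusp2 (0.095) missed 5%.

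**Figure D3:**
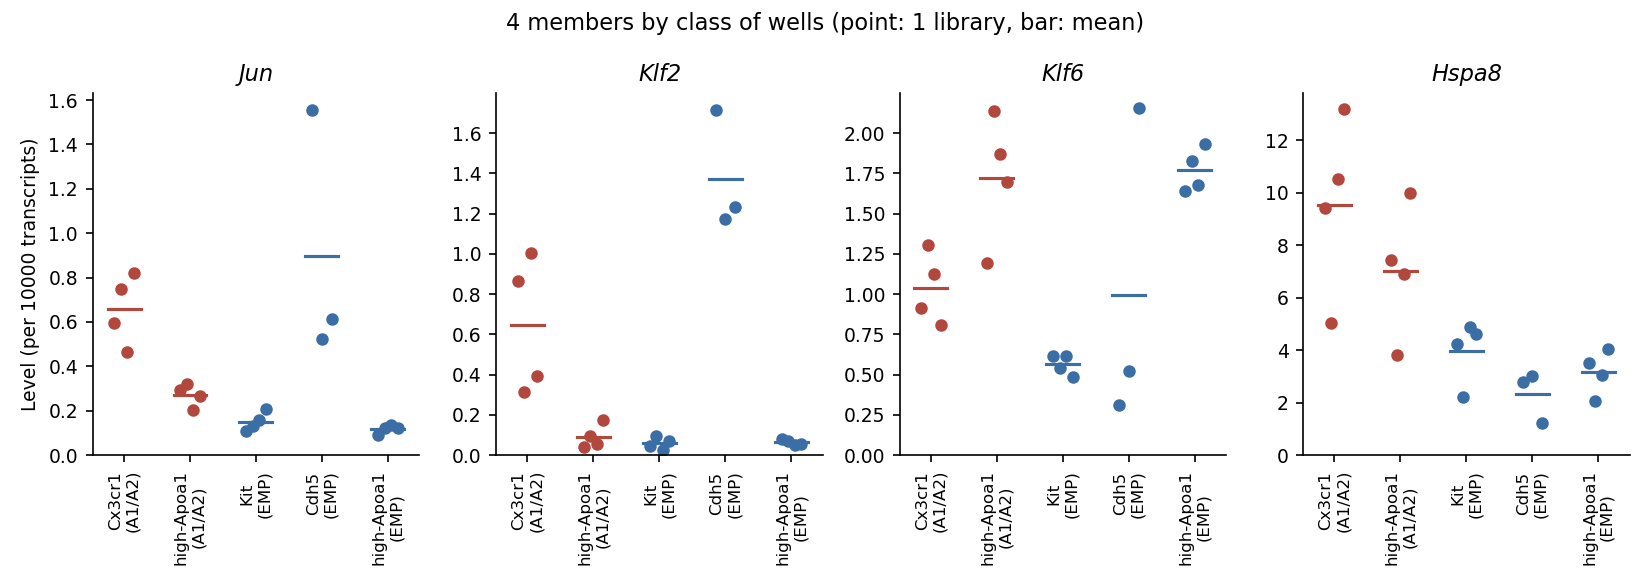
Level of Jun, Klf2, Klf6 and Hspa8 in transcripts per 10000 by class of wells, with 1 point per library and a bar at the mean (red A1/A2, blue EMP; 4 libraries per class and 3 for Cdh5). Klf2 and Jun are high in Cx3cr1 and Cdh5 wells. Klf6 has its highest bars in the high-Apoa1 wells of both groups, though its Cdh5 point of EMP library 4 (2.15) lies above all points of these wells. Hspa8 is higher in both A1/A2 classes than in the EMP classes apart from library 2.

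A few S100a8 wells held a large share of some feedback regulators. There were 0, 4, 9 and 4 of them per A1/A2 library and 0 in any EMP library. They held 0.737% of the kept A1/A2 transcripts, but 38.7% of the Dusp1, 27.5% of the Gadd45b, 15.6% of the Socs3 and 12.8% of the Ier3 transcripts of those libraries. Of the 41 Dusp1 transcripts in them, 31 were in the 4 wells of library 4, and without that library the share was 15.9%. Of the 33 Gadd45b transcripts, 22 were in library 3, and the share without it was 17.2%. Without library 3 the Socs3 share was 9.72%. In library 3, the only one with enough of these wells for a sum of its own, the immediate early members summed to 28.0 per 10000 and the heat shock members to 12.6, against 5.61 to 7.40 and 40.5 to 49.7 in the Cx3cr1 wells of the 4 libraries. The test therefore used wells with at least 1 S100a8 transcript and no high Apoa1, of which libraries 2, 3 and 4 held 6, 15 and 10. In this wider class the sums were 8.98 to 17.7 for the immediate early and 30.1 to 47.1 per 10000 for the heat shock members, so the latter overlapped with the Cx3cr1 wells. Of 25 members tested against the Cx3cr1 wells with no S100a8 transcript (110), 4 were higher and 0 lower, against 0.782% and 0.104% of 8694 genes. Dusp1, which switches off p38, JNK and ERK kinases, had 99.1, 60.0 and 98.1 CPM in the S100a8 wells of libraries 2 to 4 and 1.89, 2.43, 8.85 and 3.36 CPM in the Cx3cr1 wells of libraries 1 to 4 (3.96 ± 0.49, adjusted p = 4.4e-07). Gadd45b had 19.8, 78.0 and 38.0 CPM against 2.43 to 6.63 CPM (3.72 ± 0.58, adjusted p = 3.6e-05). Ier3 had 297, 45.0 and 31.6 CPM against 8.97 to 15.2 CPM (2.82 ± 0.52, adjusted p = 0.0029), and Atf3 19.8, 42.0 and 9.49 CPM against 2.53 to 6.72 CPM (2.38 ± 0.61, adjusted p = 0.046). For these 4 members the lowest S100a8 sum lay above the highest Cx3cr1 sum, while Hspa8, Hsp90aa1, Hsph1 and Dnajb1 did not pass the test.

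The S100a8 wells had a mixed marker profile. Of 7 neutrophil markers, S100a9 had 3.48, Cxcr2 1.72, Retnlg 0.239 and Lcn2 0.112 transcripts per 10000 over the 31 wells with at least 1 S100a8 transcript, and Camp, Ngp and Ltf were at 0. Macrophage markers were present in the same wells, C1qb at 3.98 and Csf1r at 1.88 per 10000, beside 4.74 and 3.48 in the Cx3cr1 wells. These wells sum to 45119, 362102 and 305376 transcripts in libraries 2, 3 and 4. In library 2 the 19.8 CPM of Gadd45b and of Atf3 are 1 transcript each. The median S100a8 well of a library, at 1 transcript, held 3542 to 18049 transcripts. In the 115 Cx3cr1 wells the medians were 16007 to 33989, and the part of depth in these differences was not tested. Dusp1 and Gadd45b kept their calls without any 1 of the 4 A1/A2 libraries, whereas Ier3 missed 5% without library 2 (1.80, adjusted p = 0.34) and Atf3 without library 2 (adjusted p = 0.23) or library 3 (1.03, adjusted p = 0.93).

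In the EMP libraries, Klf2 and Jun marked the endothelial class. Kit wells (109) were compared with Cdh5 wells, of which libraries 1, 3 and 4 held 7, 5 and 6, and the median log2 fold change of all genes was 0.26. Of 21 members tested, 2 were higher and 3 lower in the Kit wells, against 2.45% and 3.30% of all 8850 genes. Klf2, which blood flow induces in endothelium, had 4.84, 8.998, 2.33 and 6.90 CPM in the Kit wells of libraries 1 to 4 and 165, 108 and 95.7 CPM in the Cdh5 wells of libraries 1, 3 and 4, with no overlap (-4.58 ± 0.57, adjusted p = 5.5e-13). Jun had 10.9 to 20.7 CPM in Kit wells and 150, 48.0 and 47.9 CPM in Cdh5 wells (-2.49 ± 0.54, adjusted p = 0.00029). Dusp1 had 2.30 to 7.199 against 14.96, 36.0 and 71.8 CPM (-3.05 ± 0.90, adjusted p = 0.017). These Cdh5 values rest on few transcripts: those of libraries 1, 3 and 4 held 11, 9 and 4 of Klf2, 10, 4 and 2 of Jun, and 1, 3 and 3 of Dusp1. In the other direction, Hsp90aa1 had 2678 to 3166 CPM in Kit wells and 1526, 2113 and 766 CPM in Cdh5 wells (0.99 ± 0.20, adjusted p = 5.2e-05), and Hspa8 had 214 to 471 against 95.7 to 276 CPM, the lowest from 4 transcripts, with overlap (0.92 ± 0.26, adjusted p = 0.0096). The immediate early sum was 7.17 to 9.54 per 10000 in the Cdh5 wells and 4.07 to 4.73 in the Kit wells, and the heat shock sum 15.4 to 29.2 and 34.6 to 40.6. The Cdh5 wells were shallower, with medians of 4248 to 10372 transcripts against 17892 to 38017, and the part of depth in these differences was not tested. Klf2 and Hsp90aa1 kept their calls without any 1 library. Jun missed 5% without library 1 (-1.48, adjusted p = 0.40) and Dusp1 without library 1, 3 or 4 (up to 0.36). Hspa8 missed it under 5 of 8 alternatives. Among these were the fit without library 4 (0.15) and that with Cdh5 wells counted whether or not they held Kit (0.08 log2, adjusted p = 0.74).

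Kit wells and high-Apoa1 wells of the EMP libraries differed at many genes, some members among them. Of 21 members tested, 4 were higher and 6 lower in Kit wells, beside 27.2% and 31.3% of all 8850 genes. The counts of members thus did not stand above the background. Dusp2 had 54.4, 75.6, 71.2 and 63.3 CPM in Kit wells and 6.73, 5.65, 10.8 and 9.02 CPM in high-Apoa1 wells (3.05 ± 0.23, adjusted p = 4.2e-38). Klf6 had 48.3 to 62.9 against 193 to 220.3 CPM (-1.88 ± 0.14), and Hspb1 32.7 to 61.7 against 158 to 230 CPM (-2.21 ± 0.15), and no groups overlapped for these 3 genes. Nfkbia (26.9 ± 2.36 against 59.1 ± 0.894 CPM) and Zfp36 (18.1 ± 3.21 against 41.4 ± 3.48 CPM) were lower in Kit wells, as were Atf3 (4.16 ± 3.12 against 15.7 ± 4.26 CPM) and Btg2 (11.3 ± 5.78 against 18.7 ± 2.76 CPM). Ier2 (37.5 ± 11.8 against 19.6 ± 3.10 CPM), Jund (68.8 ± 13.4 against 47.0 ± 2.66 CPM) and Ier5 (11.9 ± 3.37 against 5.70 ± 1.48 CPM) were higher. Klf6, Hspb1, Nfkbia and Btg2 were lower, and Ier2, Ier5 and Dusp2 higher, than in high-Apoa1 wells in both the Cx3cr1 wells of the A1/A2 libraries and these Kit wells. Btg2 missed 5% without EMP library 1, 2 or 4 (adjusted p up to 0.24) and Ier5 without library 2 or 3 (up to 0.10).

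Depth was followed by comparing wells of at least 20000 transcripts (185 A1/A2 and 329 EMP wells) with wells of 1000 to under 5000 transcripts (262 and 150) in the same libraries. Over both groups, 1 of 25 tested members was higher in deep wells and 3 were lower, against 5.25% and 3.61% of all 9524 genes. The higher one was Hspa8 (0.71 ± 0.11, adjusted p = 3.6e-08). The lower ones were Dusp1 (-2.47 ± 0.63, adjusted p = 0.0028), Jun (-1.35 ± 0.29, adjusted p = 0.00018) and Klf2 (-1.16 ± 0.38, adjusted p = 0.028). Dusp1 missed 5% without EMP library 4 (-1.997, adjusted p = 0.19) and without S100a8 wells (-1.54, adjusted p = 0.22), and Klf2 without A1/A2 library 1 or 3 or EMP library 3 or 4 (up to 0.15). The median log2 fold change of all genes was 0.16, so values are read relative to it. In the A1/A2 libraries alone 1 member was higher and 12 were lower, against 4.72% and 5.66% of all genes. In the EMP libraries alone 0 were higher and 2 lower, against 0.735% and 1.10%. The 12 were Nr4a1, Dusp1, Ier3, Nfkbia, Btg1, Btg2, Dusp5, Ier5, Junb, Dusp2, Hspb1 and Klf6, and 6 of them are feedback regulators. Klf6 and Dusp2 passed narrowly (adjusted p = 0.044 and 0.047): Dusp2 missed 5% under all 11 alternatives tried and Klf6 under 10 of 11.

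In the shallow A1/A2 wells 1 transcript amounts to 5.08 to 9.85 CPM. Nfkbia had 27.1, 34.5, 33.2 and 27.7 CPM in the deep and 29.6, 196, 176 and 71.1 CPM in the shallow wells of A1/A2 libraries 1 to 4 (-1.90 ± 0.28, adjusted p = 5.1e-10). Its shallow level was thus high in libraries 2, 3 and 4 and not in library 1. Btg1 had 34.7, 24.5, 38.9 and 30.2 CPM in deep wells and 118, 166, 168 and 15.2 CPM in shallow ones (-1.74 ± 0.29, adjusted p = 1.6e-07), with library 4 on the other side of the rest. Ier3 had 4.26 to 12.5 CPM in deep wells and 0, 151, 16.8 and 20.3 CPM in shallow ones (-2.29 ± 0.49, adjusted p = 0.00010), so library 2 gave most of it. Hspa8 had 841, 403, 871 and 1090.0 CPM in deep and 483, 189, 252 and 534 CPM in shallow A1/A2 wells (1.15 ± 0.15, adjusted p = 4.0e-13). In the EMP libraries Jun had 12.1 to 15.7 CPM in deep and 39.3 to 59.6 CPM in shallow wells, from 3 to 5 transcripts per library (-1.96 ± 0.49, adjusted p = 0.0063). Klf2 had 4.25 to 8.40 against 12.9 to 47.7 CPM, the latter also from few transcripts (-2.18 ± 0.65, adjusted p = 0.047). Both were without overlap. These calls did not hold throughout: Jun missed 5% without EMP library 1 (adjusted p = 0.060) or 4 (0.095), and Klf2 under 8 of 11 alternatives. The 8 endothelial genes summed to 1.19 to 3.615 and 2.33 to 12.8 per 10000 in EMP wells of 1000 to under 2000 and 2000 to under 5000 transcripts. They summed to 1.55 to 4.49 in wells of 20000 to under 50000 and 0.579 to 2.20 in those of 50000 or more. The part of endothelial wells in these differences was not tested.

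S100a8 wells were 14 of the 262 shallow and 1 of the 185 deep A1/A2 wells, and 0 of the EMP wells. Without them 7 members passed in the A1/A2 libraries, 5 lower and 2 higher, Hspa8 and Ier2 (1.96 ± 0.65, in place of 1.44 ± 0.58 that did not pass), and the depth contrast of Dusp1 was -0.68 ± 1.09 (adjusted p = 0.80) in place of -2.56 ± 0.70. Junb, Klf6, Ier5, Dusp2, Dusp5 and Btg2 also missed 5% (adjusted p from 0.12 to 0.23). Nfkbia (-1.46), Btg1 (-1.25), Ier3 (-1.70), Nr4a1 (-3.44), Hspb1 (-0.77) and Hspa8 (1.13) kept their calls. Without A1/A2 library 2, 6 members passed, and without library 3, 5 passed. Ier3 was at -0.88 without library 2 and Ier5 at -0.44 without library 3. Mitochondrial transcripts were 25.8 to 34.7% in the A1/A2 bins under 5000 transcripts and 14.8 to 22.1% in those of 20000 or more, and the part of damaged cells was not tested.

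**Figure D4:**
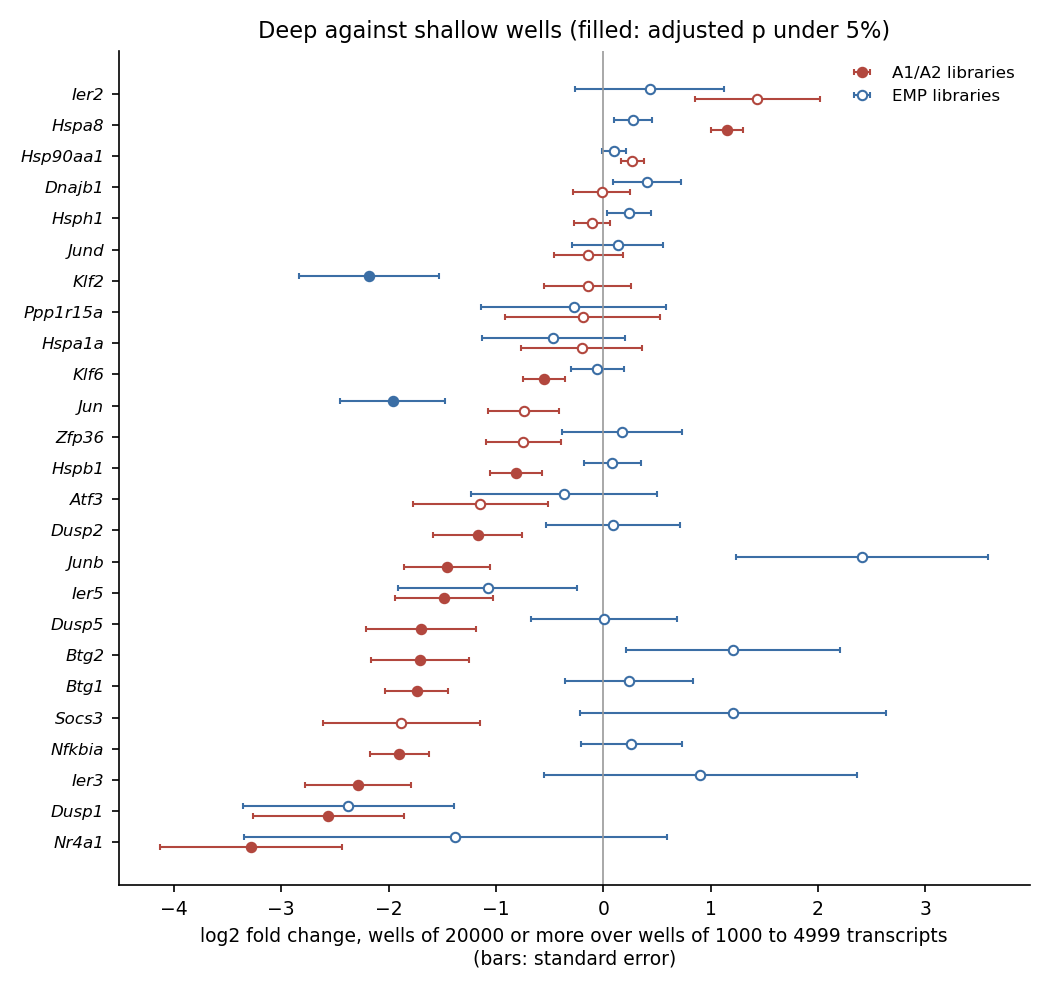
Log2 fold change of the 25 tested members between deep wells (20000 or more transcripts) and shallow wells (under 5000) in the A1/A2 (red) and EMP (blue) libraries, with standard errors; filled points passed an adjusted p of 5%. The red filled points lie left of 0 apart from Hspa8, and the blue filled points are Klf2 and Jun.

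The difference of the depth contrast between the groups was tested directly. It passed for Nfkbia (-2.16 ± 0.49, adjusted p = 0.0059), whose contrast in the EMP libraries was 0.26 ± 0.47. It passed also for Hspa8 (0.88 ± 0.23, adjusted p = 0.032), which was higher in deep wells by more in the A1/A2 libraries. That is 1 member in each direction, against 0.178% higher and 0.462% lower of all genes. The other 23 tested members did not pass, among them Junb and Btg2. Without S100a8 wells the difference was -1.69 for Nfkbia (adjusted p = 0.14) and 0.88 for Hspa8 (adjusted p = 0.041), and neither passed without A1/A2 library 2 or 3 or EMP library 2 or 3, or without the library block.

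Other genes of the same pathways were read from lists of genes that are no members, in the comparison of all A1/A2 with all EMP wells. Of 27 other immediate early genes, 21 were tested, and 5 had higher and 5 lower levels on the A1/A2 side. The background for this and the next 4 lists is 17.3% of all genes higher and 15.4% lower. The inflammatory factor Cebpb had 117 ± 21.0 against 54.2 ± 8.46 CPM (1.11 ± 0.15), and the phosphatase Dusp6 and the GTPase Rhob were also higher. Gadd45a, a relative of Gadd45b, had 6.66 ± 1.11 against 13.4 ± 2.06 CPM (-0.98 ± 0.20), and Klf10 and Dusp4 were lower too. Of 9 tested genes of the NF-kB pathway 4 were higher and 0 lower. Among them were the cytokine gene Tnf with 17.4 ± 5.89 against 1.26 ± 0.455 CPM (3.77 ± 0.34) and the subunit gene Rel with 12.6 ± 5.83 against 2.83 ± 1.05 CPM (2.15 ± 0.39). Of 12 genes of endoplasmic reticulum stress 5 were higher and 1 lower, with Sdf2l1 at 29.0 ± 4.19 against 10.03 ± 2.17 CPM and the chaperone Hsp90b1 at a mean of 929 against 667 CPM (log2 fold change 0.48 ± 0.08). Of 20 other genes of the heat shock network 2 were higher and 0 lower, Ahsa1 and Hspa4, and of 12 upstream kinases and factors 0 were higher and 1 lower, Mapk9. The median log2 fold changes of the 5 lists were -0.07, 0.46, 0.24, 0.11 and -0.02.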

How the data were processed

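The tables the authors deposited hold estimated counts: transcripts of each gene in each well, without any scaling. Every entry returned a whole number of identifiers once the correction for collisions among 4096 identifiers was undone (100%, tolerance 1e-06). BWA 0.6.2-r126 and Seurat are named in the submitters' processing notes with no role, and the genome build and counting rule were not given in the sources used here. A deposited series table of expected counts held 689 A1/A2 wells with the same values and served as a check.

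Sums over the wells of a library, or of a class with at least 5 wells in it, were rounded and tested with edgeR 4.0.16 (TMM, filterByExpr, robust quasi-likelihood test) in R 4.3.3. A1/A2 and EMP libraries were compared without a block, and classes within a group with the library as a block. P-values were adjusted by Benjamini-Hochberg over all tested genes at 5%, and SE is |log2 fold change| over the root of F. DESeq2 1.42.0 and limma 3.58.1 (pseudocount 1 CPM, wells weighted equally) served as alternatives. On simulated counts for A1/A2 against EMP (10962 genes), 80% of changes of log2 1 and 99% of log2 2 were recovered, with 8 false calls. The counts were drawn from the kind of model that was fitted, so this does not measure recovery in the real data.

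Members and lists were chosen with earlier results of these data known. Members past 5% with at least 20 CPM are named, up to 8 per direction, as are those that differ in direction between comparisons. The cut of 5 S100a8 transcripts per 10000 left 1 library with enough wells, so wells with 1 transcript were tested. Fits without S100a8 wells left out every well at the cut of 5 per 10000, also where it counted as a high-Apoa1 well.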

Additional observations from a re-analysis of the deposited data

Results flagged for a closer look

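In 62 groups of 4 libraries (members tested and the 2 sums), 4 had a library farther from the rest than a gap test at 5% allows, and chance flags about 1 in 20 such groups. Dusp2 stood at 19.1 CPM in EMP library 2, against 29.1 to 30.2 CPM in the other EMP libraries. Gadd45b stood at 1.31 CPM in EMP library 3, against 2.10 to 2.26 CPM. Hspa1a stood at 22.2 CPM in A1/A2 library 2, against 14.9 to 16.1 CPM. Hsph1 stood at 290 CPM in EMP library 2, against 222 to 229 CPM. The contrast of deep with shallow wells differed between A1/A2 and EMP libraries for Nfkbia, by -2.16 on the log2 scale (adjusted p = 0.0059), and for Hspa8, by 0.88 (adjusted p = 0.032), each by the test of the difference itself.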

How the results depend on the processing

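Among 70 results for single members under 771 alternatives, 594 kept direction and side of the 5% threshold, 164 missed 5% in the same direction, 9 newly passed it and 4 changed sign. The last were Ier2 between A1/A2 and EMP libraries, at -0.041 without wells above 3 times the median total and -0.18 with wells weighted equally, Hsp90aa1 there at -0.074 in wells of under 5000 transcripts, and Hspa8 in high-Apoa1 wells at -0.038 with the cut at 50, which left 4 of the 8 library sums. Several alternatives were chosen after seeing the data: wells of 1 depth only, Cdh5 wells with or without Kit, and wells without S100a8. The causes of these shifts were not tested.

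Wells thinned to 1000 transcripts left 2 to 6 members testable, and the number past 5% was then 1 for A1/A2 against EMP (11 before), 0 in high-Apoa1 wells (3), 0 for Cx3cr1 against high-Apoa1 wells (11), 0 for S100a8 wells (4), 1 for Kit against Cdh5 wells (5), 0 for Kit against high-Apoa1 wells (10), 1 for deep against shallow wells (4), 1 in A1/A2 (13), 0 in EMP (2) and 0 for their difference (2). For A1/A2 against EMP it was 0 in wells of under 5000 transcripts. In high-Apoa1 wells it was 0 with the cut at 50, 1 in wells of 20000 or more and 0 in shallower ones, and 1 to 5 with 1 library left out. Other ranges with 1 library left out were 2 to 11 for S100a8 wells (11 without library 4), 3 to 5 for Kit against Cdh5 wells, 2 to 5 for deep against shallow wells, 5 to 13 in A1/A2, 0 to 2 in EMP and 0 to 5 for the difference. With Cdh5 wells counted with or without Kit it was 3. DESeq2 gave 7 for depth in A1/A2 and 1 for the difference, and leaving out S100a8 wells gave 7 and 1.

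With wells weighted equally 5 of the 11 calls for A1/A2 against EMP remained, and 10.6% of all genes passed in place of 32.8%. The immediate early sum was 8.33 per 10000 in the A1/A2 and 5.16 in the EMP libraries after thinning, and 7.82 in A1/A2 with wells weighted equally. The heat shock sums were 31.9 and 30.39 after thinning and 32.6 and 30.41 with equal weights, so the groups stood closer together than the 40.1 and 33.1 of the sums.

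The titles give both groups the numbers P1 to P4 and do not say what P marks. The correlations of same-numbered libraries were 0.22, 0.39, -0.025 and 0.22 over 11144 genes, not all above 0.1, so the numbers were not taken as pairs; each A1/A2 library but number 3 correlated best with its own number. With the replicate block 4736 genes passed between A1/A2 and EMP in place of 3651, with 12 members higher and 3 lower in place of 10 and 1, and 5 members in place of 3 in high-Apoa1 wells. Without the replicate block within groups, 2 members passed for S100a8 wells, 2 for deep against shallow wells, 8 in A1/A2, 1 in EMP and 0 for the difference.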
